A study of Mus musculus with 18 samples.

Results

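The replication-dependent histone genes of the mouse were followed through polysome gradients of 4T1 cells, a mammary carcinoma line from a BALB/c mouse used to model triple-negative breast tumours. The genes were taken by name alone: of 35976 gene symbols listed in each library, 69 begin with Hist1h, Hist2h, Hist3h or Hist4h, the names of the 4 histone gene clusters. They comprise 6 H1, 19 H2A, 19 H2B, 12 H3 and 13 H4 genes, and 55 of them lie in cluster 1, which is on chromosome 13. All cells, controls included, received doxycycline at 2 µg/ml for 6 days, which switched on 1 of 2 hairpins, a non-silencing control (NSi) or one that targets Dap5 (shDap5). Dap5 is Eif4g2, a relative of the scaffold factor eIF4G that takes part in translation initiation without the cap-binding protein eIF4E. RNA came from the unfractionated lysate (input), from pooled light polysomes and from pooled heavy polysomes, giving 6 groups of 3 libraries, 18 together. The labels name no clone and leave unsaid whether the 3 libraries were separate cultures; the p-values below therefore rest on a library-to-library spread that may be technical.

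Replication-dependent histone genes supply the bulk of the histones that package new DNA in S phase. Their messages are unlike other messages: most have no introns, and the primary transcript is cleaved just after a conserved stem-loop, which is bound by the stem-loop binding protein SLBP and stands in for a poly(A) tail in translation and decay. Some of the genes also have a poly(A) signal further downstream and yield polyadenylated transcripts, which are known from differentiating and non-dividing cells. These libraries were made by polyA selection, so they keep only the polyadenylated share of the histone messages and the carry-over of the rest. The copies also resemble each other closely, so reads shared between them may have been split, assigned to 1 copy or dropped.

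The annotated ends of the transcripts show both kinds of 3' end. In the mouse GENCODE vM21 transcripts (build GRCm38), 44 of the 69 genes hold the 16-base histone stem-loop (a paired stem closed by a loop of T-rich sequence, in capitals in the windows below; 5 of its 16 positions were left free in the search), against 28 of 21810 protein-coding genes outside the 4 clusters (0.128%). A poly(A) signal, AATAAA or ATTAAA, lies in the last 40 bases of an annotated transcript of 17 histone genes, 13 of which also have the stem-loop, whereas 48.7% of all 58797 protein-coding transcripts end in such a hexamer. The transcript models of 13 histone genes stop at the stop codon, so a missing match can come from the model. The windows, written as DNA of the transcript strand from 5' to 3', show genes on which the results turn, with the stem-loop or the poly(A) hexamer in capitals. Hist1h1c, Hist1h2be and Hist1h4i have both elements, Hist2h2be has the hexamer and no stem-loop match, and Hist1h1e and Hist1h1d have the stem-loop and no hexamer at the end of the model.
Hist1h1c stem-loop: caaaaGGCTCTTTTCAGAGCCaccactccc
Hist1h1c hexamer: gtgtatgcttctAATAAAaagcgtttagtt
Hist1h2be stem-loop: ccaaaGGCTCTTTTCAGAGCCacccaacag
Hist1h2be hexamer: gttgtgttccttATTAAAgcattcctgatt
Hist1h4i stem-loop: ttaaaGGCCCTTTTTAGGGCCaccacaaaa
Hist1h4i hexamer: ggttctgtttacATTAAAagtattctatgc
Hist2h2be hexamer: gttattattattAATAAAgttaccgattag
Hist1h1e stem-loop: ccaaaGGCTCTTTTCAGAGCCacccacaac
Hist1h1d stem-loop: caaacGGCTCTTTTCAGAGCCacccacaac
The stem and loop are identical in Hist1h1c, Hist1h2be, Hist1h1e and Hist1h1d, and Hist1h4i differs from them in the stem and in the loop. In Hist1h1c, 840 bases follow the stem-loop in the transcript model, and in Hist1h2be 1861 bases. Hist1h2bc, the second most abundant member below, is annotated with 2 exons and 1156 bases and has neither the stem-loop nor a hexamer at its annotated end.

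Histone counts were a very small part of each library. Total counts ran from 30385863 to 71331978, and the 69 genes together took 0.00142% to 0.0104% of them. Levels are given as CPM, the counts scaled to the TMM-adjusted total of each library, and 38 of the 69 genes passed the filter on low counts and were tested among 15072 genes. The filter asks for about 10 counts in at least 3 libraries, so a weakly counted gene can pass through 1 group alone. The other 31 genes comprised 21 with at most 142 counts over all libraries and 10 with none (Hist1h2aa, Hist1h2ao, Hist1h2ap, Hist1h2bq, Hist1h2br, Hist1h4m, Hist2h2aa1, Hist2h2aa2, Hist3h2a and Hist3h2bb-ps). A count of 0 allows up to 3 counts of a library, and this limit covers counting error only. In 7 of these 10 genes at most 10.8% of the 50-base stretches of the transcripts are unique among the histone genes, and how reads shared between copies were counted is not known. Over all 69 genes the median was 53.0%. Of the 14 members with at most 15% of these stretches unique, the other 7 had counts, up to 97 over all libraries. Every pair of replicates differed by more than sampling noise, with a chi-square of at least 9.57 per degree of freedom.

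Hist1h1c, Hist1h2bc and Hist2h2be held most of the signal. Hist1h1c, which encodes the linker histone H1.2, took 34.7% of all histone counts, and Hist1h2bc and Hist2h2be, which encode H2B proteins, took 18.7% and 16.02%. Averaged over the 18 libraries, no other member reached 5 CPM. Per kilobase of the longest coding transcript model, the mean level in NSi input was 7.42 CPM for Hist1h1c, 4.45 for Hist1h2bc and 2.22 for Hist2h2be, followed by 1.07 for the H4 gene Hist1h4i, 0.773 for Hist2h2bb and 0.623 for Hist1h2be. By contrast, no H2A or H3 gene reached 1 CPM in any library of NSi input. Summed over class, NSi input held 12.6 CPM of H1, 13.6 of H2B, 1.67 of H4, 0.746 of H2A and 0.725 of H3 (means, n = 3).

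The library shDap5 heavy replicate 2 stood apart and bears on every result for shDap5 heavy polysomes. A total of 40 genes had at least 30 counts there and at least 4 times the CPM of every other library, and 15 of them were histone genes. Only 1 other library had any gene by that measure, NSi light replicate 2, with 21 genes and no histone gene among them. Hist1h1e, a linker histone gene, had 477 counts in that library against 10 and 26 in the other shDap5 heavy libraries, and Hist1h1b stood at 7.48 against 0.123 and 0.144 CPM. RNAs that carry no poly(A) tail, chosen after their values were seen, were high in the same library. The 7SK RNA Rn7sk stood at 15.7 CPM there and at 0.293 to 3.10 CPM in the other 17 libraries. The RNase MRP and RNase P RNAs Rmrp and Rpph1 stood at 6.94 and 6.65 CPM, against at most 0.707 and 0.622 elsewhere, and the Y RNAs Rny1 and Rny3 at 5.48 and 3.17 CPM, against at most 0.723 and 0.336. The telomerase RNA Terc, at 0.078 CPM against up to 0.203 elsewhere, was not high. The part of such RNAs in the histone counts of this library was not tested.

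The excess in this library was uneven over the histone genes. Of the 38 tested members, 30 stood at least 2 times above the mean of the other two shDap5 heavy libraries, and 28 were at their highest of all 18 libraries. The median ratio was 8.20 over the 28 members without a poly(A) hexamer at an annotated end and 2.78 over the 10 with one. Hist1h1b, Hist1h1e and Hist1h4d, all without a hexamer match, stood at 56.2, 34.3 and 32.8 times the mean of the other two libraries. At the other end were the members with the most counts over all libraries. Hist1h1c stood at 1.19, Hist1h2be at 1.22, Hist2h2be at 0.752, Hist1h4i at 0.746 and Hist1h2bc at 0.610 times that mean. All of these but Hist1h2bc are among the 10 members with a hexamer, so the medians do not separate the hexamer from abundance. The remaining members with a hexamer ran from 1.99 for Hist1h2ae to 18.6 for Hist2h4. The annotated hexamer did not sort the genes fully, since Hist2h4 with a hexamer stood at 18.6 and Hist1h2ba without one at 0.412 times. The transcript models of Hist1h1b and Hist1h2ba end at the stop codon, so no hexamer beyond it could be found. Of the 50-base stretches of their transcripts, 98.99% in Hist2h4 and 61.8% in Hist1h2ba are unique among the histone genes. Many other members share sequence with their copies, and in 31 members under 50% of these stretches are unique.

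**Figure D1:**
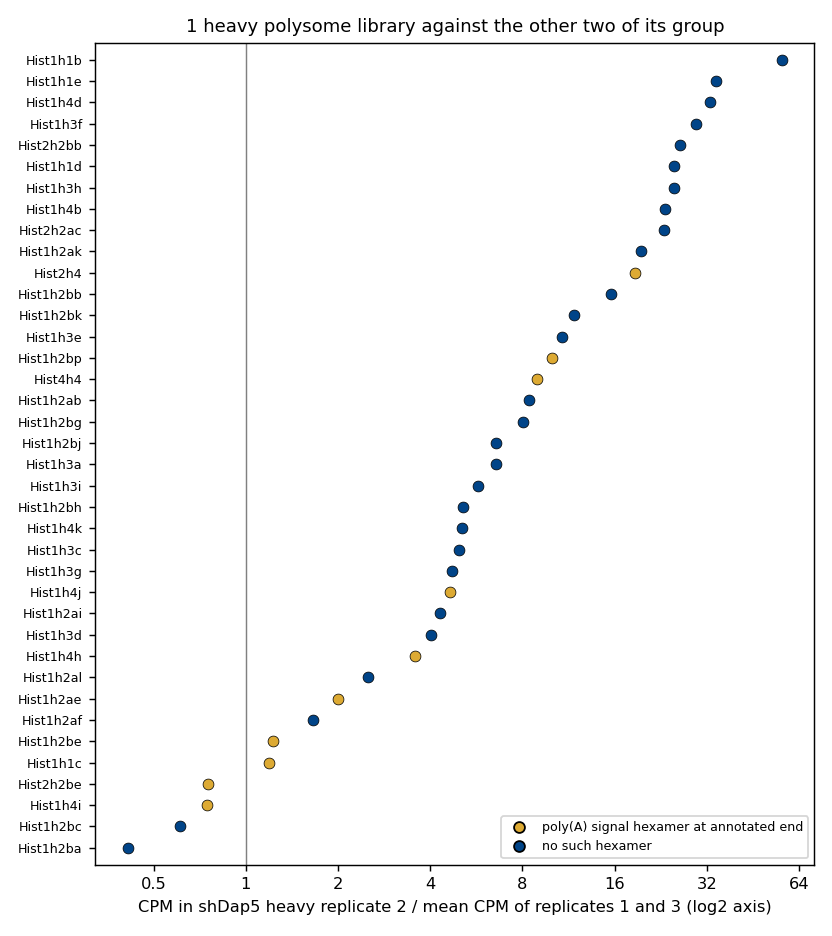
Ratio of CPM in shDap5 heavy replicate 2 to the mean CPM of shDap5 heavy replicates 1 and 3 (log2 axis) for the 38 tested histone genes, 1 point per gene, coloured by whether an annotated transcript ends in a poly(A) hexamer. Ratios run from 0.412 for Hist1h2ba to 56.2 for Hist1h1b, and Hist1h1c, Hist1h2bc, Hist1h2be, Hist2h2be and Hist1h4i lie between 0.610 and 1.22.

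Summed levels show the same split. Hist1h1c, Hist1h2bc and Hist2h2be together stood at 10.8, 10.4 and 14.6 CPM on NSi heavy polysomes and at 27.5, 31.2 and 39.3 CPM on shDap5 heavy polysomes, in the order of replicates 1, 2 and 3. All 3 shDap5 values lay above all 3 NSi values, and replicate 2 lay between the other two. The other 66 genes together stood at 6.56, 5.96 and 10.9 CPM on NSi heavy polysomes and at 8.34, 88.6 and 11.7 CPM on shDap5 heavy polysomes. Here replicate 2 alone was far above the rest, and replicates 1 and 3 lay inside or just above the NSi range. In the inputs the 66 genes stood at 7.32, 6.80 and 6.35 CPM in NSi and 8.50, 8.08 and 6.96 CPM in shDap5, with overlapping ranges, and on light polysomes at 22.3, 14.8 and 19.7 CPM in NSi and 18.7, 14.4 and 16.7 CPM in shDap5, again with overlap. Between same-numbered libraries, the sum of the 66 was higher in shDap5 in all 3 pairs in input and lower in all 3 pairs on light polysomes. The leading group of 3 stood at 28.4, 17.8 and 21.4 CPM in NSi input and 41.4, 30.3 and 39.1 CPM in shDap5 input, which do not overlap, and at 33.0, 26.4 and 40.5 CPM on NSi light and 75.0, 42.4 and 65.3 CPM on shDap5 light polysomes, which do not overlap either.

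**Figure D2:**
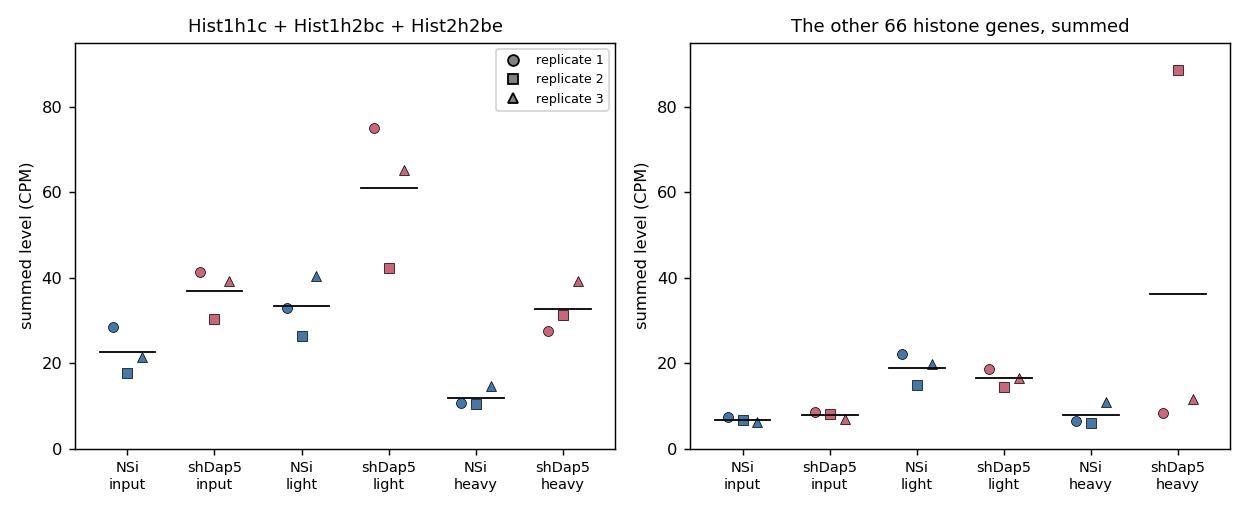
Summed CPM of Hist1h1c, Hist1h2bc and Hist2h2be (left) and of the other 66 histone genes (right) in each library, by arm and fraction; symbols mark replicates and lines the mean of 3 libraries. On the left shDap5 lies above NSi in each fraction, and on the right shDap5 heavy replicate 2, at 88.6 CPM, stands alone.

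The hairpin target was lower on shDap5 polysomes. Eif4g2 stood at 1315, 983 and 769 CPM on NSi light and 428, 311 and 274 CPM on shDap5 light polysomes, an edgeR log2 change of -1.60 (SE 0.26, adjusted p = 0.00204). On heavy polysomes the edgeR change was -1.45 (SE 0.26, adjusted p = 0.00349). In input it was -0.59 (SE 0.26, adjusted p = 0.202), which did not pass, although the 3 shDap5 inputs, at 592, 340 and 671 CPM, all lay below the NSi inputs. Of the 7 epithelial markers listed for 4T1 cells, the sum ran from 1870 to 5831 CPM over the libraries, and 6 were detected above 1 CPM in each group. In input the sum was 1870 to 2157 CPM in NSi and 2638 to 3307 CPM in shDap5, so it was higher in shDap5, as were the leading histone genes. Markers of fibroblasts, endothelium and lymphocytes summed to at most 40.5, 6.33 and 0.631 CPM in any library, and 6 macrophage markers to between 20.2 and 116 CPM. Some of these markers differed between the arms. The endothelial sum in input was 2.38 to 3.26 CPM in NSi and 0.867 to 1.498 CPM in shDap5, with Vwf and Tie1 lower among 4 tested. The macrophage marker Csf1r was higher in shDap5 in each fraction and Lyz2 lower in input, among 3 tested, and none of 3 fibroblast markers tested passed. The part of other cell types in the histone levels was not tested.

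On heavy polysomes Hist1h1c, Hist1h2bc, Hist2h2be and the weaker Hist1h2be were higher with the Dap5 hairpin. Here and below, a gene rose or fell where its adjusted p was under 0.05 in the edgeR quasi-likelihood test (Benjamini-Hochberg over all 15072 genes). On heavy polysomes 8 of 38 members were higher in shDap5 and none lower, against 2.03% of all genes tested that were higher (3.95% in either direction). Without shDap5 heavy replicate 2, 4 of the 8 passed (3.57% of all genes in either direction): Hist1h1c, Hist1h2bc, Hist1h2be and Hist2h2be. In input only Hist2h2be rose (1 of 38, against 6.95% of all genes), and on light polysomes no member passed (0 of 38, against 3.47%), where DESeq2 called 2. At an unadjusted p under 0.05 there were 5 members on light polysomes, beside 2428 of all 15072 genes.

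Hist1h1c stood at 5.48, 5.27 and 7.76 CPM on NSi heavy polysomes and at 15.4, 20.4 and 18.9 CPM on shDap5 heavy polysomes. The lowest shDap5 library was well above the highest NSi library. By edgeR the log2 change was 1.56 (SE 0.34, adjusted p = 0.0137), and without shDap5 heavy replicate 2 it was 1.47 (SE 0.37, adjusted p = 0.0335). In input Hist1h1c stood at 15.8, 7.86 and 11.1 CPM in NSi and 22.1, 12.6 and 20.8 CPM in shDap5, where the groups overlapped, and the change of 0.68 (95% interval -0.01 to 1.36) did not pass (edgeR adjusted p = 0.263). Its light polysome levels were 13.1, 10.2 and 20.6 CPM in NSi and 43.3, 17.8 and 28.0 CPM in shDap5, also overlapping, with a log2 change of 1.02 and an edgeR adjusted p of 0.104.

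Hist1h2bc, an H2B gene, was the member with the smallest p on heavy polysomes. It stood at 2.82, 2.12 and 3.05 CPM in NSi and 6.90, 5.90 and 12.5 CPM in shDap5, without overlap. By edgeR the log2 change was 1.66 (SE 0.29, adjusted p = 0.00307), and 1.86 (SE 0.29, adjusted p = 0.00253) without shDap5 heavy replicate 2. Input levels were 5.77, 4.81 and 4.84 CPM in NSi and 7.95, 8.67 and 7.69 CPM in shDap5. Each shDap5 input was above each NSi input, yet the change of 0.66 did not pass (edgeR adjusted p = 0.190). On light polysomes Hist1h2bc stood at 12.3, 8.73 and 13.2 CPM in NSi and 19.5, 13.3 and 26.8 CPM in shDap5, again without overlap, with a log2 change of 0.80 and an edgeR adjusted p of 0.133.

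Hist2h2be, a cluster 2 gene for an H2B protein, rose both in input and on heavy polysomes. Its input levels were 6.85, 5.13 and 5.43 CPM in NSi and 11.3, 8.96 and 10.7 CPM in shDap5, without overlap, an edgeR log2 difference of 0.83 (SE 0.21, adjusted p = 0.0210). Heavy polysome levels were 2.51, 3.04 and 3.77 CPM in NSi and 5.24, 4.94 and 7.88 CPM in shDap5, with a change of 0.96 (SE 0.22, adjusted p = 0.0183) by edgeR and of 1.08 without shDap5 heavy replicate 2. On light polysomes the levels of 7.66, 7.44 and 6.68 CPM in NSi and 12.2, 11.2 and 10.5 CPM in shDap5 did not overlap, and the change of 0.64 did not pass (edgeR adjusted p = 0.109). The arms were thus separated in all 3 fractions for this gene. How many of all tested genes had such non-overlapping arms is not given, here or for the other genes. The input call was lost when either NSi replicate 2 or 3, or shDap5 replicate 1 or 3, was left out (edgeR adjusted p from 0.0529 to 0.153).

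Hist1h2be, a weaker H2B gene with a long transcript model, rose on heavy polysomes. Its levels there were 0.228, 0.402 and 0.397 CPM in NSi and 0.828, 1.22 and 1.17 CPM in shDap5, without overlap. By edgeR the log2 change was 1.65 (SE 0.35, adjusted p = 0.0123), and 1.56 (SE 0.39, adjusted p = 0.0339) without shDap5 heavy replicate 2. In input, NSi stood at 2.01, 1.25 and 1.42 CPM and shDap5 at 1.59, 2.18 and 1.25 CPM, so the ranges overlapped, and the difference was 0.10 (95% interval -0.54 to 0.73). Its change on heavy polysomes relative to that in input was 1.55 (95% interval 0.58 to 2.52), which did not pass the adjustment (edgeR adjusted p = 0.9996), and was 1.45 without shDap5 heavy replicate 2. Hist1h4i, the strongest H4 gene, stood at 0.570, 0.256 and 0.943 CPM on NSi heavy and 1.69, 1.12 and 1.31 CPM on shDap5 heavy polysomes, without overlap, and its change of 1.18 did not pass (edgeR adjusted p = 0.113). With the replicate number as a block within fraction it passed, at 1.24 (SE 0.30, adjusted p = 0.0114) by edgeR, but not when shDap5 heavy replicate 2 was also left out, at 0.97 (SE 0.32, adjusted p = 0.0757).

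**Figure D3:**
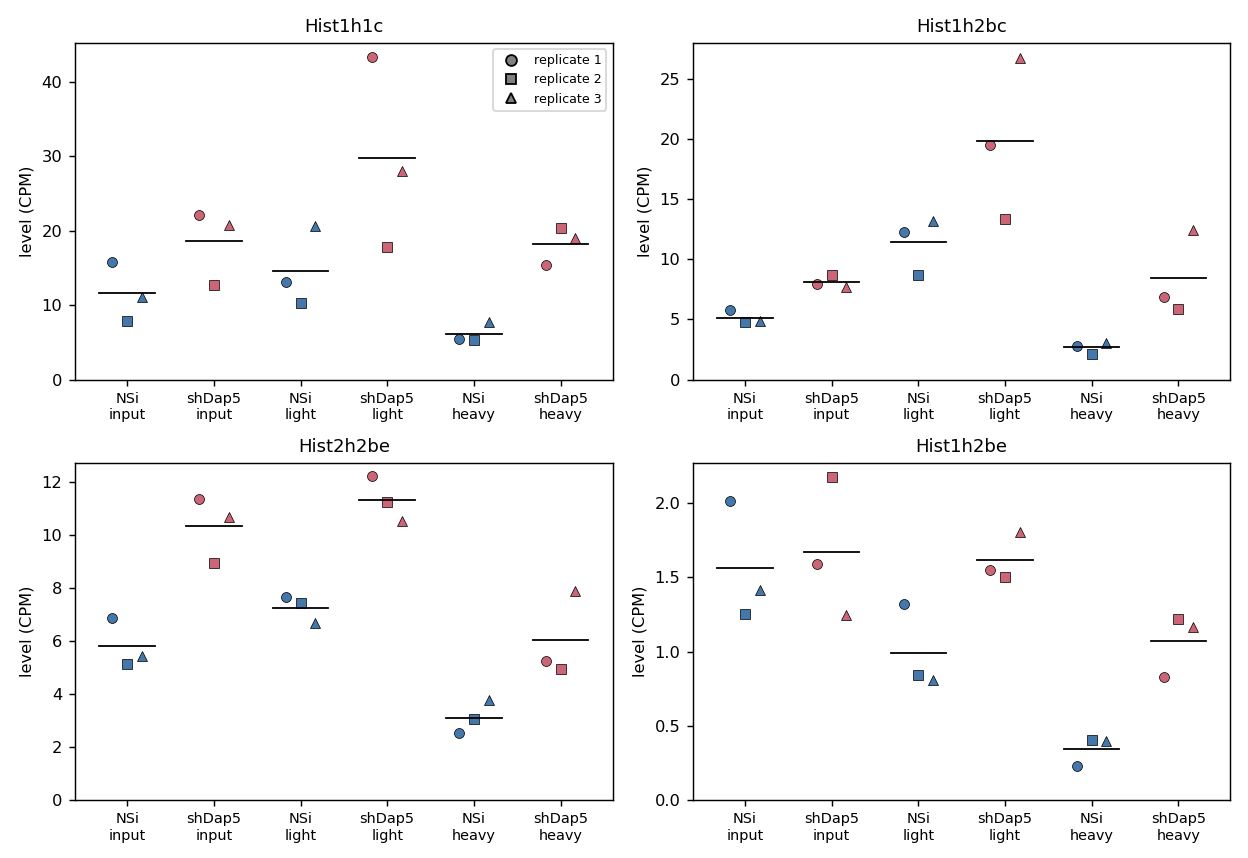
CPM of Hist1h1c, Hist1h2bc, Hist2h2be and Hist1h2be in each library by arm and fraction, each panel with its own linear axis from 0; symbols mark replicates and lines the mean of 3 libraries. On heavy polysomes all 3 shDap5 libraries lie above all 3 NSi libraries for each of the 4 genes, and shDap5 heavy replicate 2 is not set apart.

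Same-numbered libraries of the 2 arms deviated together, and a fit with the replicate number as a block within each fraction called more members. In that fit 3 members rose in input (22.1% of all genes called) and 3 on light polysomes (16.1%), the same 3 in both: Hist1h1c, Hist1h2bc and Hist2h2be. Their log2 changes in input were 0.69, 0.66 and 0.83, with edgeR adjusted p of 0.0216, 0.00779 and 5.48e-04. On light polysomes they were 0.99, 0.77 and 0.64, with adjusted p of 0.00476, 0.00428 and 0.00597. On heavy polysomes 13 members rose under the block (18.3% of all genes), and 4 without shDap5 heavy replicate 2 (9.99%). The 13 hold 6 members that had not passed without the block, Hist1h4i among them, and lack Hist1h1d (edgeR adjusted p = 0.0507). The 4 called without the library were again Hist1h1c, Hist1h2bc, Hist1h2be and Hist2h2be, with edgeR adjusted p from 6.82e-04 to 0.0258. In a fit of the heavy libraries alone 1 of 13 members tested passed, Hist1h1c (edgeR adjusted p = 0.0466), beside 0.423% of all genes in that fit.

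The 4 calls on heavy polysomes did not stand equally firm. Hist1h2bc passed whichever replicate was left out. Hist1h1c, Hist1h2be and Hist2h2be no longer passed without NSi replicate 1, without NSi replicate 2 or without shDap5 replicate 3, each left out in all 3 fractions. The edgeR adjusted p then ran from 0.0596 to 0.0779 for Hist1h1c, from 0.0546 to 0.0630 for Hist1h2be and from 0.116 to 0.144 for Hist2h2be, while the log2 changes stayed between 0.71 and 1.77.

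The other 4 members that rose on heavy polysomes were Hist1h1d, Hist1h2bb, Hist1h2bh and Hist1h4h, and their values rest on shDap5 heavy replicate 2. Hist1h2bb stood at 0.0856, 0.110 and 0.0248 CPM in NSi and 0.153, 2.68 and 0.192 CPM in shDap5; its edgeR log2 change went from 3.79 (SE 0.99, adjusted p = 0.0380) to 1.31 (SE 0.73, adjusted p = 0.328) without that library. Hist1h4h stood at 0.257, 0.146 and 0.447 CPM in NSi and 0.460, 2.68 and 1.04 CPM in shDap5, and its change went from 2.25 (SE 0.56, adjusted p = 0.0293) to 1.39 (SE 0.50, adjusted p = 0.136). For Hist1h1d the change went from 3.58 to 0.44, and for Hist1h2bh from 2.95 to 1.82 (edgeR adjusted p without it 0.739 and 0.164). Without that library the filter passes 15416 genes and takes Hist1h2ag in place of Hist1h2ai, so medians with and without it are given over the 37 members tested in both fits. On heavy polysomes their median log2 change between the arms was 1.75 with the library and 0.17 without it, beside 0.01 over all genes in each fit. Over the 38 members of the full fit the median was 0.11 in input, beside 0.05 over all genes, and -0.32 on light polysomes, beside -0.01. On heavy polysomes 36 of the 37 lay above 0 with that library and 22 of the 37 without it.

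Along the gradient, many histone messages were higher on light polysomes than in input. Each library was scaled to its own total, so a change between fractions is relative to other genes and not an amount of RNA. On NSi light polysomes 16 of the 38 members stood above input and none below, against 26.7% of all genes that were higher (51.4% in either direction). The 16 were Hist1h2ab, Hist1h2ae, Hist1h2al, Hist1h2ba, Hist1h2bc, Hist1h2bj, Hist1h2bk, Hist1h3a, Hist1h3c, Hist1h3g, Hist1h3i, Hist1h4b, Hist1h4d, Hist1h4h, Hist1h4i and Hist4h4, so every core class was among them. None of the 4 H1 genes tested passed, and 3 of these were at their highest in shDap5 heavy replicate 2, which enters the shared spread. Hist1h1e did not pass, at a mean of 0.208 CPM per kilobase in NSi input and 0.539 on NSi light polysomes. A difference between H1 and the core classes was not tested. A weakly counted gene can have passed the filter through its light libraries alone, so these counts describe the 38 and not all 69 members. In shDap5, 12 members were higher on light polysomes and none lower, against 26.4% of all genes (53.2% in either direction). In both lists were 11 genes, which is 68.8% of the NSi list and 91.7% of the shDap5 list. The arms share no library, but the lists are not independent. They come from the same fit, with a shared spread and filter, and same-numbered light libraries of the arms deviated together (r = 0.554 to 0.807). The overlap over all genes tested is not given here. Hist1h3d was the 1 gene called in shDap5 alone. The median log2 change of the 38 members was 1.78 in NSi and 1.46 in shDap5, beside 0.02 in NSi and -0.0037 in shDap5 over all genes, and 33 of 38 lay above 0 in both arms. Leaving out NSi replicate 1 or 3 in the 3 fractions lowered the NSi count to 5 or 6, and leaving out shDap5 replicate 1 or 3 lowered the shDap5 count to 5 or 6. Leaving out shDap5 heavy replicate 2, which is in neither comparison but changes the shared spread, the filter and the adjustment, raised the counts to 25 in NSi (51.9% of all genes) and 20 in shDap5 (53.5%).

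**Figure D4:**
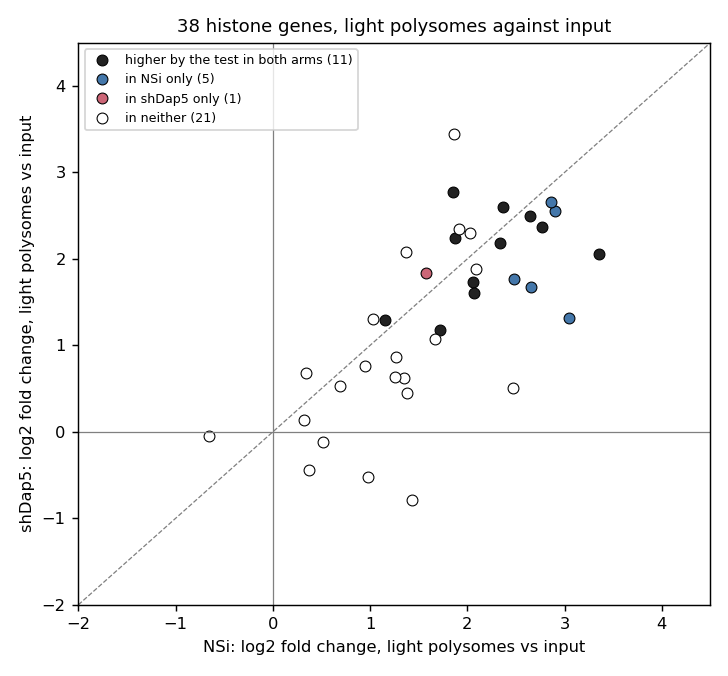
Log2 fold change between light polysomes and input in NSi (x axis) and in shDap5 (y axis) for the 38 tested histone genes, 1 point per gene, filled by whether it passed the test in both arms (11), NSi alone (5), shDap5 alone (1) or neither (21); the dashed line marks equal values. Most points, 33 of 38, lie above 0 on both axes.

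The H4 gene Hist1h4i shows the pattern at the highest level among the weaker genes. It stood at 0.780, 0.643 and 0.919 CPM in NSi input, 3.50, 2.22 and 1.99 CPM on light polysomes and 0.570, 0.256 and 0.943 CPM on heavy polysomes. Every light library was above every input and heavy library, while input and heavy polysomes overlapped. In shDap5 the levels were 1.29, 0.916 and 1.08 CPM in input and 3.52, 2.00 and 1.95 CPM on light polysomes, and the edgeR log2 change between them was 1.18 (SE 0.37, adjusted p = 0.0122). The H2B gene Hist1h2bj had the largest change of the 16, from 0.109, 0.0643 and 0.0623 CPM in NSi input to 0.634, 0.720 and 1.13 CPM on NSi light polysomes, an edgeR log2 change of 3.35 (SE 0.65, adjusted p = 4.21e-04). For the H2A gene Hist1h2ae the levels were 0.140, 0.0804 and 0.202 CPM in NSi input, 0.685, 0.570 and 0.537 CPM on light and 0.513, 0.476 and 0.794 CPM on heavy polysomes. It was the 1 member that stood above input on NSi heavy polysomes as well, by 2.06 (SE 0.47, adjusted p = 0.00162) on the log2 scale by edgeR.

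By contrast Hist1h1c, Hist1h2bc, Hist2h2be and the weaker Hist1h2be were not all higher on light polysomes than in input. Hist1h2bc was, with an edgeR log2 change of 1.15 (SE 0.28, adjusted p = 0.00249) in NSi and 1.29 (SE 0.28, adjusted p = 9.40e-04) in shDap5. Hist1h1c changed by 0.34 (95% interval -0.35 to 1.03) and Hist1h2be by -0.66 (95% interval -1.31 to 0.00) between NSi input and light polysomes, and neither passed. Hist2h2be stood at 6.85, 5.13 and 5.43 CPM in NSi input and 7.66, 7.44 and 6.68 CPM on NSi light polysomes, and it did not pass either.

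On heavy polysomes of NSi cells Hist1h1c, Hist1h2bc, Hist2h2be and the weaker Hist1h2be were below input. Against input 4 of 38 members were lower and 1 higher, beside 3049 lower and 3980 higher of all 15072 genes (46.6% in either direction). Members were thus called lower less often than all genes. The lower genes were Hist1h2be, at a log2 change of -2.18 (edgeR adjusted p = 6.48e-05), Hist1h2bc at -0.94 (0.0126), Hist1h1c at -0.90 (0.0338) and Hist2h2be at -0.90 (0.00248). Against light polysomes 8 of 38 members were lower and none higher. That is a smaller share than the 25.6% of all genes that were lower (52.6% in either direction). The 8 were these 4 with Hist1h2af, Hist1h2bj, Hist1h3i and Hist1h4i. Hist1h4i fell by 2.09 on the log2 scale (SE 0.39, edgeR adjusted p = 2.86e-04). The median over the 38 members was -1.21, beside -0.03 over all genes, and 37 of 38 lay below 0. Leaving out NSi replicate 1 or 2 lowered the count from 8 to 5, and leaving out shDap5 heavy replicate 2 raised it to 15 (53.6% of all genes). Against input the same omission gave 4 higher and 4 lower (47.5%), and leaving out NSi replicate 1 or 2 gave 2 or 3 in all.

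In shDap5 cells the heavy polysome comparisons turned on the library that stands apart. With it, 24 members were higher than in input and 1 was lower (47.8% of all genes in either direction). Without it 5 were higher (Hist1h2ab, Hist1h2ae, Hist1h2ba, Hist1h2bh and Hist1h4h) and 2 lower, Hist2h2be and Hist1h2bp (47.3%), and the median log2 change of the 37 members tested in both fits went from 2.46 to 0.54. Against light polysomes 5 were higher (Hist1h1b, Hist1h1d, Hist1h1e, Hist1h2bh and Hist2h2bb) and 2 lower, Hist1h2bc and Hist2h2be (44.5% of all genes), and without it none was higher and 4 were lower, Hist1h2bc, Hist1h2bp, Hist1h4b and Hist2h2be (33.8%). The median of the 37 went from 0.68 to -0.78. Hist1h2bp was named here after its values were seen. Hist1h1e, for example, changed by 2.76 (SE 0.92, adjusted p = 0.0222) with the library and by -0.79 (SE 0.47, adjusted p = 0.207) without it, by edgeR. Hist1h2bc and Hist2h2be fell in both fits, Hist1h2bc at a log2 change of -1.23 and -1.02, and Hist2h2be at -0.91 and -0.78.

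Histone coding sequences are short, from 312 to 672 bases in the longest transcript models, and the place of other genes on the gradient went with their coding length. A coding length was found by symbol for 12591 of the 15072 tested genes (83.5%). Among genes outside the histone clusters, the median log2 change between NSi input and light polysomes was 1.45 for the 999 with a coding length under 500 bases, 0.57 for 2848 genes from 500 to under 1000 bases, -0.10 for 4857 genes from 1000 to under 2000 bases and -0.62 for 3850 longer genes, beside 1.78 for the histone genes. Between NSi light and heavy polysomes the medians were -1.31, -0.13, 0.26 and 0.43 in the same order, beside -1.21 for the histone genes. Of the 999 genes with the shortest coding sequences, 933 were above 0 on light polysomes against input and 36 on heavy against light. In shDap5 the histone genes and the genes under 500 bases stood at 1.46 and 1.34 on light polysomes against input. They parted in the comparisons that include shDap5 heavy replicate 2. Heavy against input, the medians were 2.55 for the histone genes and 0.44 for the short genes, and heavy against light 0.71 and -0.97. Without that library the histone medians, over the 37 members tested in both fits, were 0.54 and -0.78. The short genes were not summarised without it. A difference between the histone genes and other short genes was not tested.

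**Figure D5:**
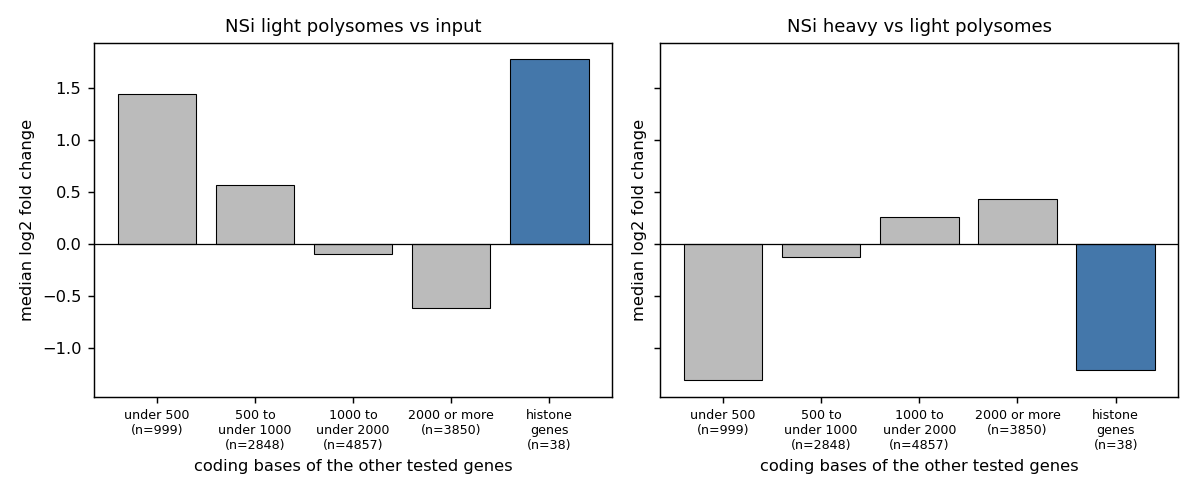
Median log2 fold change (bars, from 0) between NSi light polysomes and input (left) and between NSi heavy and light polysomes (right) for tested genes outside the histone clusters by coding length, and for the 38 tested histone genes (blue). The histone bars, at 1.78 and -1.21, stand next to those of the genes under 500 coding bases, at 1.45 and -1.31.

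No member passed a test of whether the effect of the hairpin differed between fractions. The 3 comparisons (light relative to input, heavy relative to input, heavy relative to light) called 0 of 38 members by edgeR, and 0% of all 15072 genes. At an unadjusted p under 0.05 there were 1, 10 and 17 members, beside 320, 295 and 181 of the 15072 genes. The comparisons with heavy polysomes include shDap5 heavy replicate 2. None of the 3 was fitted with the replicate number as a block within fraction, the block that pairs the arms. The rise of Hist1h1c, Hist1h2bc and Hist2h2be on heavy polysomes was therefore not shown to differ from their changes in input. For Hist2h2be the heavy-relative-to-input difference was 0.13 (95% interval -0.50 to 0.76), and for Hist1h2bc the 95% interval was 0.16 to 1.84. In bulk libraries a different share of cells in S phase and a different amount of histone RNA per cell cannot be told apart.

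The wider histone pathway was read from 4 lists, beside 6.95% of all genes called between the arms in input, 3.47% on light and 3.95% on heavy polysomes. Of 24 tested genes for histone mRNA processing and the histone locus body, 1 rose in input, Zfp473, which encodes a zinc finger protein of the processing complex and had an edgeR log2 change of 0.89 (SE 0.23, adjusted p = 0.0260). None passed on light or heavy polysomes. Slbp, for the stem-loop binding protein, stood at 92.1, 77.3 and 94.9 CPM on NSi heavy and 80.5, 58.8 and 67.3 CPM on shDap5 heavy polysomes, a change of -0.36 (edgeR adjusted p = 0.411). Npat, whose protein activates histone transcription from the locus body, changed by -0.06 in input and -0.18 on heavy polysomes, and neither passed. Of 30 tested S phase genes 1 rose in input, Pola1, the catalytic subunit of DNA polymerase alpha with an edgeR log2 change of 1.01 (SE 0.29, adjusted p = 0.0447), and none passed on polysomes. The medians of the S phase list were 0.25 in input, -0.08 on light and -0.25 on heavy polysomes. Over all genes they were 0.05, -0.01 and 0.01. A link between the S phase list and the histone levels was not tested. None of 9 tested replication-independent histone genes and none of 22 histone chaperone genes passed in any of the 3 fractions.

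On the gradient of NSi cells, most replication-independent histone genes were lower on heavy than on light polysomes, and most chaperone and S phase genes higher, beside 52.6% of all genes called and a median of -0.03. The replication-independent histone genes encode variants that can also be deposited outside S phase, most of them made from ordinary polyadenylated messages. Between light and heavy polysomes 7 of 9 were lower on heavy polysomes and 1, H2afy, was higher (median -1.33). H2afz, for the variant H2A.Z, changed by -1.77 (SE 0.25, adjusted p = 1.57e-05) and H3f3b, for H3.3, by -1.34 (SE 0.24, adjusted p = 1.74e-04) on the edgeR log2 scale. H2afy encodes macroH2A. Of 22 chaperone genes 15 were higher on heavy polysomes and none lower (median 0.70), among them Ipo4, an importin for histones, at 1.99. Of 30 S phase genes 22 were higher and 1 lower (median 1.18), with Mcm7 of the replicative helicase at 1.76. Of the 24 processing genes 14 were higher and 4 lower (median 0.54), with Cpsf1 at 2.25 and Slbp at 0.76.

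Promoters of the histone genes were searched for known motifs. RefSeq promoters (GRCm38.p6, 250 bases before the gene start) were found for 62 annotated histone starts and searched on both strands. The H1 box AAACACA was in 5 of the 6 H1 promoters, against 6.25% of 32851 mouse promoters, and CCAAT was in all 6, against 33.8%. ATTTGCAT, the octamer motif, was in 7 of 17 H2A and 7 of 17 H2B promoters, against 1.60%, and TATAAA was in 29 of the 62, against 12.4%. Both promoters below hold AAACACA and CCAAT, and Hist1h1e also holds TATAAA, all in capitals. They are shown as the start regions of the most abundant H1 gene and of an H1 gene that was high in shDap5 heavy replicate 2. A match is a description of the letters only, and each promoter is written 5' to 3' on the strand of its gene.
Hist1h1c, chr13:23738557-23738806, plus strand: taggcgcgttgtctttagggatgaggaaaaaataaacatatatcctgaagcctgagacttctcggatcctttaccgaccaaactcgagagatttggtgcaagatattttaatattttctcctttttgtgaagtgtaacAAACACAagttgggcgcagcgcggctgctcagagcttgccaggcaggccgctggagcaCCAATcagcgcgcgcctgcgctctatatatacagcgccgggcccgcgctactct
Hist1h1e, chr13:23622559-23622808, minus strand: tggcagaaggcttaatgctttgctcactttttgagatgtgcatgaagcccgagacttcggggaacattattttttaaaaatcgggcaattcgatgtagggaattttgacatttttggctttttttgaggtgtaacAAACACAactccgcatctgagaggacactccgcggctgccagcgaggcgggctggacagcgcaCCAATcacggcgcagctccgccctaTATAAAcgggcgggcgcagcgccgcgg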

How the data were processed

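Raw counts for each gene symbol were deposited by the authors, 1 table per library, unnormalized. Bowtie and the mouse build mm9 are named in the submitters' processing notes. Which program counted the reads, on which annotation, whether strand was used and how reads of several copies were treated is not given in the sources used here. Per the labels' protocols, RNA was taken with Trizol, cleaned on columns and made into stranded polyA-selected libraries. No row without a gene name was present, and 27 symbols written as dates are not named. Gene models came from another build (GRCm38), so positions of counted genes are not printed.

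All 18 libraries (30385863 to 71331978 counts) were fitted together in edgeR 4.0.16 (R 4.3.3), with 1 mean per group, TMM scaling, filterByExpr (minimum count 10, minimum total 15), 12 residual degrees of freedom; the common biological coefficient of variation was 0.227. The quasi-likelihood F test was adjusted by Benjamini-Hochberg over 15072 genes in each of 12 comparisons, at 0.05. SE is the log2 change divided by the square root of F. The script was tested on simulated data.

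Members were fixed by name. Genes were named where they had a mean of at least 5 CPM, passed in any comparison, led their class or had 1 of the 3 smallest p-values of the members; of the other lists, Slbp, Npat and up to 3 genes per list. Others are said to be chosen after their values were seen. Members, lists and rules were chosen with earlier results of these data known. Alternatives were RLE factors, library totals, no filter, a replicate block, only the groups compared, DESeq2 1.42.0 and leaving out replicates.

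Replicate numbers come from the sample titles. Deviations from the group mean correlated between same-numbered libraries of the 2 arms in each fraction (9 of 9 pairs over 0.1, r = 0.152 to 0.829), so the numbers pair the arms, and blocked values stand beside the results.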

Additional observations from a re-analysis of the deposited data

How the results depend on the processing

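Low counts limit most members: 35 of the 38 tested averaged under 5 CPM, shared copies cannot be separated, and polyA selection sets which histone messages are seen. Of 1473 alternative values of the named log2 changes, 1258 were counted as the same, 182 no longer passed, 16 newly passed and 17 reversed. A reversal was counted only where the main or the alternative value passed. The 1258 can therefore include changes of sign among values that passed in neither fit. All 17 reversals came from leaving out shDap5 replicate 2. Without all 3 of its libraries, heavy against input in shDap5 became -0.90 for Hist1h1b, -0.39 for Hist1h1d, -0.31 for Hist1h1e, -0.40 for Hist1h4b and -0.04 for Hist2h2bb, and heavy against light became -0.71 for Hist1h1b, -0.90 for Hist1h1d, -0.92 for Hist1h1e and -1.08 for Hist2h2bb. Over all single-replicate omissions, heavy against input ran from -0.90 to 3.76 for Hist1h1b, -0.39 to 3.97 for Hist1h1d, -0.31 to 3.78 for Hist1h1e, -0.40 to 4.16 for Hist1h4b and -0.04 to 3.68 for Hist2h2bb, and heavy against light from -0.71 to 4.17, -0.90 to 3.53, -0.92 to 3.65 and -1.08 to 3.33 for Hist1h1b, Hist1h1d, Hist1h1e and Hist2h2bb. Without its heavy library alone, an alternative added after the data were seen, heavy against input became -1.13 for Hist1h1b, -0.08 for Hist1h1d, -0.34 for Hist1h1e and -0.10 for Hist2h2bb, and heavy against light -0.68, -0.61, -0.79 and -0.73 for the same genes. That omission left 4 members called for shDap5 against NSi on heavy polysomes, 7 for shDap5 heavy against input and 4 for heavy against light, and 4 on heavy polysomes with the replicate block within fraction as well.

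Counts of called members also moved with other settings, and the cause was not tested unless stated. With library totals only, 0 were called in input. A replicate block over all libraries called 2 on light polysomes, and the block within fraction called 3 in input, 3 on light and 13 on heavy polysomes. The block within arm, where numbers paired only 11 of 18 library pairs between fractions over 0.1 (r = -0.334 to 0.754) and 11 of 18 correlated best with their own number, called 4 for shDap5 heavy against light; the block changed no other count by over 1.5 times. Fitting only the groups compared, which tests fewer histone genes (12 to 33), called 2 in input, 1 for shDap5 against NSi on heavy polysomes, 5 for shDap5 heavy against input and 2 for shDap5 heavy against light. DESeq2 called 2 on light polysomes. Leaving out 1 replicate of an arm gave, for shDap5 against NSi, 0 to 1 called members in input, 0 to 2 on light polysomes and 1 to 11 on heavy ones, 5 to 28 for NSi light against input, 2 to 8 for NSi heavy against input, 5 to 15 for NSi heavy against light, 5 to 19 for shDap5 light against input, 7 to 28 for shDap5 heavy against input and 5 to 8 for shDap5 heavy against light. On heavy polysomes the lowest value, 1, came without NSi replicate 1 or without NSi replicate 2. The 3 comparisons between fractions called 0 under every alternative in which they were run. They were not run with the replicate block within fraction.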

Other observations

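Of the 31 histone genes that were not tested, 21 had counts, and 4 of these were among the genes that stood out in shDap5 heavy replicate 2; the genes named here were chosen after their values were seen. Hist1h4c, an H4 gene, had 75 counts in that library, against 5 and 8 in shDap5 heavy replicates 1 and 3. Hist1h3b, an H3 gene, had 59 against 2 and 9, Hist2h3b had 46 against 0 and 2, and Hist1h2bm, an H2B gene, had 42 against 3 and 1. Hist1h1t, the testis linker histone gene, had 5 counts in all 18 libraries together, and Hist1h1a had 3.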
